A study of Mus musculus with 8 samples.

Results

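The replication-dependent core histone genes were followed through 8 Cut & Tag peak lists from differentiated brown adipocytes with and without Cars2. Members were all protein-coding genes on chromosomes 1 to 19 whose current symbol is H2ac, H2bc, H3c or H4c and a number (older symbols Hist1h and Hist2h), which gave 57 of 20665 autosomal protein-coding genes in RefSeq's table for GRCm38.p6. They comprised 17 H2A, 16 H2B, 12 H3 and 12 H4 genes, 47 on chromosome 13 and 10 on chromosome 3. A member was counted in a list when a peak overlapped the gene or the 10 kb on either side of it, called its window below.

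In Cut & Tag, an antibody on chromatin guides a transposase that cuts and tags the DNA beside the bound protein. The antibodies were against EBF2, a transcription factor that sets brown fat identity, and against H3K27ac, the acetylation of histone H3 at lysine 27 that marks active promoters and enhancers. All cells were brown preadipocytes (BAC) of newborn Cars2 flox/flox mice, made immortal with SV40 large T antigen and then differentiated, at 50000 cells per sample. They had received Cre recombinase by retrovirus (Cre, Cars2 knockout) or the empty vector (Vec), so floxed alleles and large T antigen were common to both, and both were cultured lines and not tissue. Each antibody was used on 2 Vec and 2 Cre libraries, and no source used here says that these came from separate cultures, so the spread between them may be technical. Cars2 encodes mitochondrial cysteinyl-tRNA synthetase, which also makes cysteine persulfides.

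Nucleosomes package DNA around histone proteins. Replication-dependent genes are small, lack introns as a rule, lie in dense clusters and are transcribed in S phase when new DNA must be packed, and their mRNAs end in a stem-loop instead of a poly(A) tail. Replication-independent variants such as H3.3 and H2A.Z come from single genes elsewhere and are made throughout the cell cycle. Neighbouring H2A and H2B genes often face away from each other and share a short promoter.

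EBF2 Vec replicate 2 stood apart, with 306 autosomal peaks against 423 to 463 in the other EBF2 lists, so that results resting on it are also given without it. The H3K27ac lists held 467 to 729 autosomal peaks. The lists of all libraries shared many genes: 593 genes had a peak in every list, which was between 46.3% and 92.9% of the genes of a list. Read counts are not part of the lists, so depth is unknown and a missing peak is not evidence of missing signal. Members are close copies of each other, and how reads that fit several copies were placed is not given in the sources used here; its part in the peaks was not tested. Peaks of EBF2 Cre replicate 1 are named Cars2AKO, which the study uses for an adiponectin-Cre mouse, and peaks of EBF2 Vec replicate 1 are named WT. Groups here rest on the sample labels. As a check of the labelled cell type, 0 of 13 brown adipocyte markers, Ucp1, Pparg, Cidea and Ebf2 among them, had a peak in any list, and of 8 preadipocyte or fibroblast markers only Ly6a had peaks, in the 4 H3K27ac lists. Since 7.72% of all autosomal protein-coding genes had a peak in any list, so few markers neither bear out the label nor go against it.

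Promoters are shown for the 8 genes that bound the order of the members in each histone class, the first and the last on chromosome 13 when members were ranked by the number of lists with a peak. Each is the 250 bases before the annotated start from RefSeq (GRCm38.p6), 5′ to 3′ on the strand of the gene, with capitals at matches on either strand to TATAAA (the TATA motif), to CCAAT, which the factor NF-Y binds, or to the octamer ATTTGCAT, a POU factor site known from H2B promoters. The first line of each class is a gene with peaks in 8 lists, and the second a gene with peaks in 0 lists or, for H3c8, in 3.
H2ac24, H2A, chr13:21833476-21833725, minus strand: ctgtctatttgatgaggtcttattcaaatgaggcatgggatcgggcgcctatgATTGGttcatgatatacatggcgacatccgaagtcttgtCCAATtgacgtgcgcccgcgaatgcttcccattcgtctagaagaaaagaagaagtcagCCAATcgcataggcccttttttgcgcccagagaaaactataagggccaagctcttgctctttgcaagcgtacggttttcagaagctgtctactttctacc
H2ac1, H2A, chr13:23934187-23934436, plus strand: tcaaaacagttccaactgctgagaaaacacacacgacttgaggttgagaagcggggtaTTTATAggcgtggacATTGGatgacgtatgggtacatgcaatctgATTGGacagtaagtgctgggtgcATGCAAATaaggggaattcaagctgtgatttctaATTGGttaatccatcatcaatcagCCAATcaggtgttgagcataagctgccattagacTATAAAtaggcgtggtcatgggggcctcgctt
H2bc12, H2B, chr13:22035571-22035820, plus strand: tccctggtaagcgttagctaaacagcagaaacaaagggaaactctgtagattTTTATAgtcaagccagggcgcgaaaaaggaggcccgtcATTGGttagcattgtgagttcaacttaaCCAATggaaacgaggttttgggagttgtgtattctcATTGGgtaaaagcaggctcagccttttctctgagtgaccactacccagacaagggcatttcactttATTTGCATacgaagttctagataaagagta
H2bc1, H2B, chr13:23934157-23934406, minus strand: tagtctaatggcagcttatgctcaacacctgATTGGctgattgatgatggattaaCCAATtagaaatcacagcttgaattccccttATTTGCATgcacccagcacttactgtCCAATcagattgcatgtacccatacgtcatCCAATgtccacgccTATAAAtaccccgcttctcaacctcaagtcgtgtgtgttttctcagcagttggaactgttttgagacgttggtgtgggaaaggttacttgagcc
H3c11, H3, chr13:21783398-21783647, minus strand: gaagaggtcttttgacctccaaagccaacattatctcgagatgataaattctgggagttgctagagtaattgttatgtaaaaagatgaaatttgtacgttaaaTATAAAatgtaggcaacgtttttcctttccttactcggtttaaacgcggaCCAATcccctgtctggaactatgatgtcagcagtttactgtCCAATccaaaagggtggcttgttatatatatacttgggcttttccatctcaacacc
H3c8, H3, chr13:23535168-23535417, plus strand: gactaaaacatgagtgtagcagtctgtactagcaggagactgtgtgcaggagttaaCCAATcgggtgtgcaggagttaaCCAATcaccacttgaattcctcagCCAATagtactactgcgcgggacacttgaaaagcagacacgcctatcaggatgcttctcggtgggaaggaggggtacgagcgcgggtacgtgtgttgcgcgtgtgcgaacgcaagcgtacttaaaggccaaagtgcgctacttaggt
H4c18, H4, chr13:21832198-21832447, minus strand: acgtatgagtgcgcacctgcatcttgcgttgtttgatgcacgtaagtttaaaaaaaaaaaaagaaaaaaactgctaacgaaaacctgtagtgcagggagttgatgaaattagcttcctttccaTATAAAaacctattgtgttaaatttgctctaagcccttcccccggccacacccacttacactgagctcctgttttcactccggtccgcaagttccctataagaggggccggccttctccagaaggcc
H4c8, H4, chr13:23530794-23531043, plus strand: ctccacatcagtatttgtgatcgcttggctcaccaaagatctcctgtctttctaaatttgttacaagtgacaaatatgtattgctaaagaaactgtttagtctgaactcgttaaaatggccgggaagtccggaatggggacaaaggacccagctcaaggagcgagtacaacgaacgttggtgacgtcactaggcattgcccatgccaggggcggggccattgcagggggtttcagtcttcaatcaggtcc

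These motifs were more common before members than before all genes, and they stood before members with and without peaks. Of 53 promoters of the 52 members with an entry, 43 held CCAAT (81.1%, against 35.3% of 20085 promoters of all genes), 24 held TATAAA (45.3% against 11.7%) and 13 held the octamer (24.5% against 1.59%). CCAAT was in 5 of 7 promoters of members without an EBF2 peak and in 38 of 46 others. The octamer was found before 6 of 17 H2A and 7 of 15 H2B promoters and before 0 of 10 H3 and 0 of 11 H4 promoters. Among the lines above it stands in H2bc12, which had peaks in 8 lists, and also in H2ac1 and H2bc1, which had none. All 17 H2A and 15 H2B promoters held CCAAT, against 8 of 10 for H3 and 3 of 11 for H4. The core letters of the EBF site, CCCNNGGG, were in 0 of the 53 member promoters and in 13.9% of all promoters, which says only that they are not in these 250 bases. H2A and H2B promoters share their DNA in 9 head-to-head pairs of members with an entry whose genes lie 163 to 280 bp apart, so that their matches are not independent.

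In every list but EBF2 Vec replicate 2, most histone genes had a peak inside or within 10 kb of them. With EBF2, 34 members had a peak in Vec replicate 1 and 18 in Vec replicate 2, where 4.04% and 3.09% of all autosomal protein-coding genes had a peak. In Cre cells 49 and 36 members had an EBF2 peak, beside 4.06% and 3.91% of all genes. With H3K27ac, the counts were 44 and 47 in Vec and 49 and 49 in Cre, beside 5.79%, 4.53%, 4.77% and 6.2% of all genes. The share of members was thus between 31.6% and 86%, above the share of all genes in each of the 8 lists. A peak in at least 1 list was found for 49 members, beside 7.72% of all genes, and a peak in all 8 lists for 18 members, beside 2.87%. Those 18 were all the members that EBF2 Vec replicate 2 had, and without that library 29 members were in each of the 7 lists left. At H2bc6, H4c11, H2ac13, H2bc14 and H3c10 the best peak of that library stood at percentile 1.31 of its list by significance score, near the bottom. Members are not independent of each other, since between 4 and 11 peaks made up the count of a list.

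**Figure D1:**
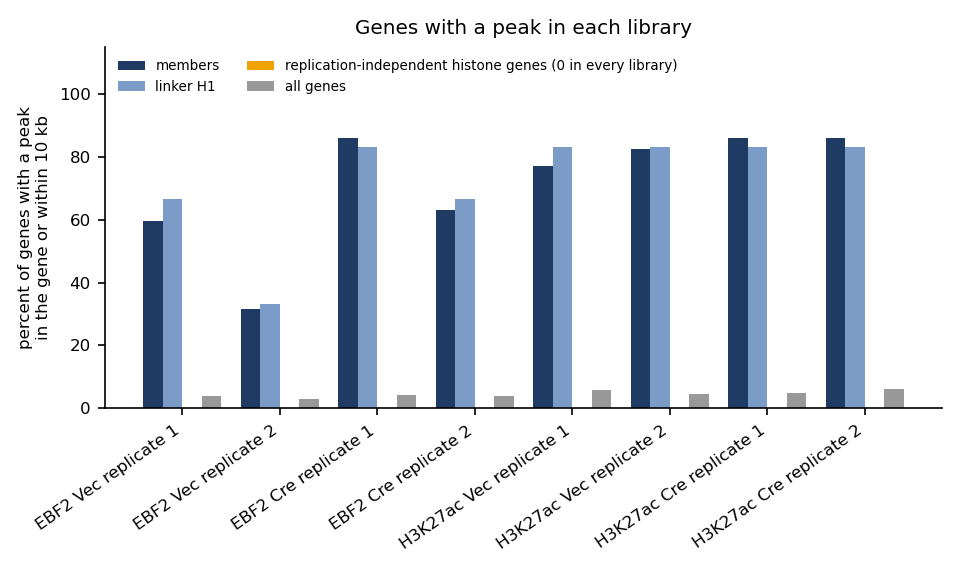
Percent of genes with a peak inside or within 10 kb of them (vertical axis) in each of the 8 libraries, for the 57 members, 6 linker histone H1 genes, 16 replication-independent histone genes and all 20665 autosomal protein-coding genes. Members reach 31.6% to 86%, all genes stay at 3.09% to 6.2%, and the replication-independent genes have no bar because none had a peak.

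Many members were counted through a few wide peaks. Between 2 and 5 peaks wider than 10 kb lay at members in each list. Over the autosomes 31% to 50.3% of the peaks of a list were that wide, so wide peaks were not particular to members. When only peaks of 10 kb or less were used, 14 and 8 members in EBF2 Vec, 21 and 12 in EBF2 Cre, 16 and 13 in H3K27ac Vec and 5 and 5 in H3K27ac Cre still had a peak, beside 0.368% to 2.32% of all genes. Counting only peaks that touch the gene itself, EBF2 left 18 and 2 members in Vec and 32 and 26 in Cre, and H3K27ac left 27 and 32 in Vec and 33 and 34 in Cre, beside 2.71% to 5.35% of all genes. By that count only 2 members were in all 8 lists.

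The members fell into 5 clusters of genes no more than 100 kb apart, and the clusters differed. Cluster 1 (chr3:96219885-96270192) held 10 genes, cluster 2 (chr13:21715711-21833475) 16, cluster 3 (chr13:22035122-22043658) 5, cluster 4 (chr13:23531044-23762386) 24 and cluster 5 (chr13:23933725-23934913) 2. In clusters 2 and 3 all 21 genes had a peak in both EBF2 Cre lists and in all 4 H3K27ac lists. In cluster 4, 23 of 24 genes had a peak in EBF2 Cre replicate 1 and in both H3K27ac Cre lists, but only 9 and 1 in EBF2 Vec replicates 1 and 2. Cluster 1 had peaks at 5 of 10 genes in the same 6 lists, and cluster 5 had none.

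**Figure D2:**
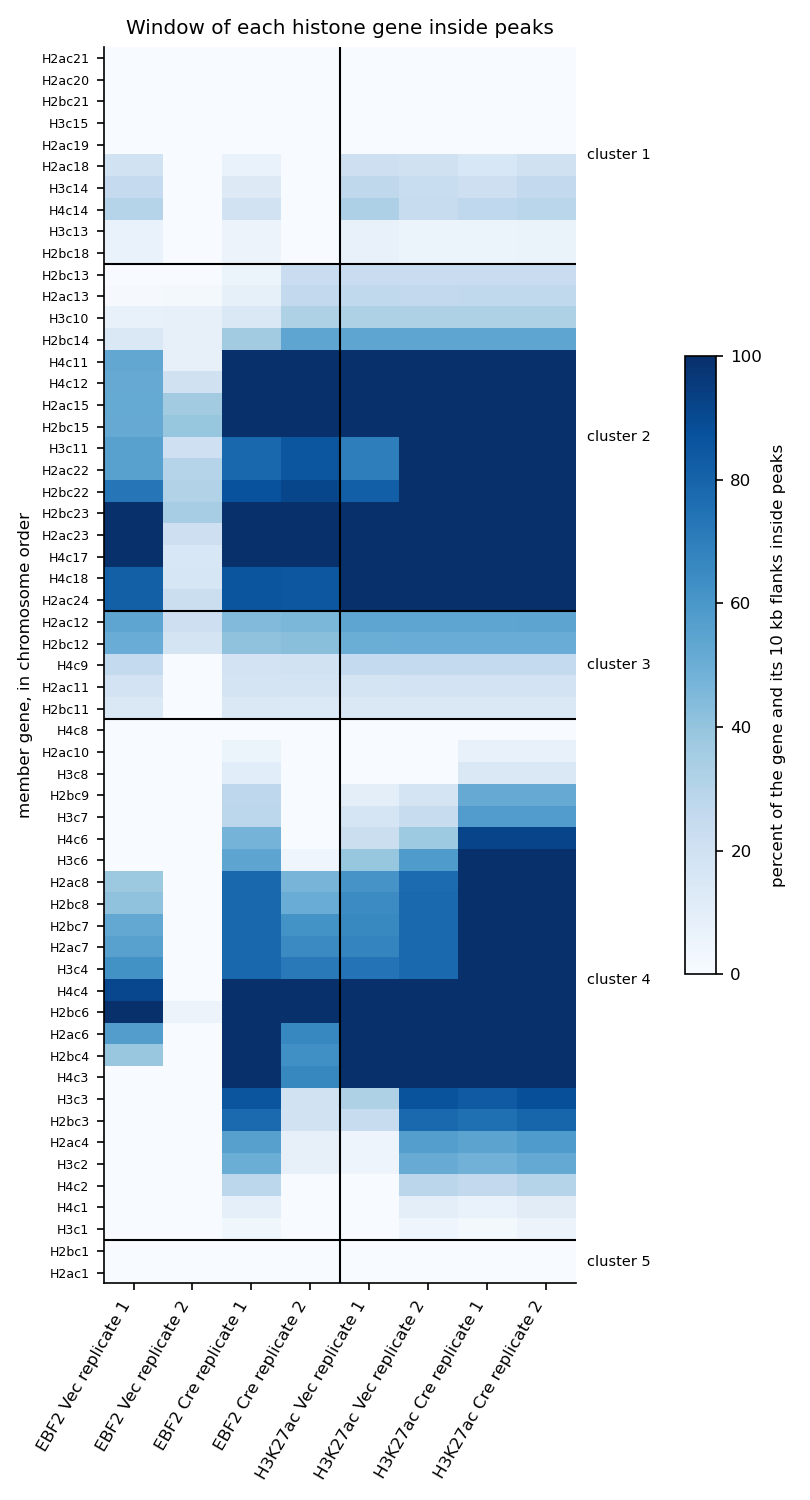
Percent of each member's window (the gene and 10 kb on each side) that lies inside peaks, as a colour from 0 to 100, for the 57 members in chromosome order (rows) and the 8 libraries (columns); lines part the 5 clusters and the 2 antibodies. Clusters 2 and 4 are dark over their middle genes, cluster 5 and the first 5 genes of cluster 1 are at 0, and EBF2 Vec replicate 2 is the palest column.

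In clusters 2 and 3 the H3K27ac peak ran from cluster to cluster over the genes between them. It was a single peak of 315 kb in Vec replicate 2, Cre replicate 1 and Cre replicate 2, with a fold over the caller's background of 6.45, 6.13 and 7.25. In Vec replicate 1 the same stretch was split into peaks of 59.2 kb and 249 kb with folds of 2.4 and 7.16, parted by 6.22 kb from H3c11 to H2ac22. By significance score they ranked between the percentiles 82.6 and 93.7 of their own lists. EBF2 covered the stretch in pieces. In EBF2 Cre replicates 1 and 2 the pieces were 57.4, 42 and 199 kb and 61.8, 42.4 and 199 kb, followed by a peak of 3.68 kb and of 3.96 kb that ended in H2bc12. EBF2 Vec replicate 1 had 2 of the same pieces, of 41.3 and 204 kb, and broke the first one up into 4 smaller peaks.

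Some breaks between the EBF2 pieces lay at histone genes and others between them. In EBF2 Vec replicate 1, Cre replicate 1, Cre replicate 2 and H3K27ac Vec replicate 1, a gap of 9.1, 4.38, 2.96 and 6.22 kb started in or before H3c11 and ended at H2ac22. A second gap of 3.79, 2.9 and 3.11 kb, in EBF2 Vec replicate 1 and the EBF2 Cre replicates, ended within or beside H4c18. Other gaps touched no member: 4.31 and 3.7 kb on either side of the peak at H4c11 in EBF2 Vec replicate 1, and 1.96 and 1.48 kb before H2ac12 in EBF2 Cre replicates 1 and 2. In EBF2 Vec replicate 2 the gaps held or touched 12 of the 16 genes of cluster 2, and its peaks overlapped only H2bc22 among them, although all but H2bc13 had a peak within 10 kb.

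**Figure D3:**
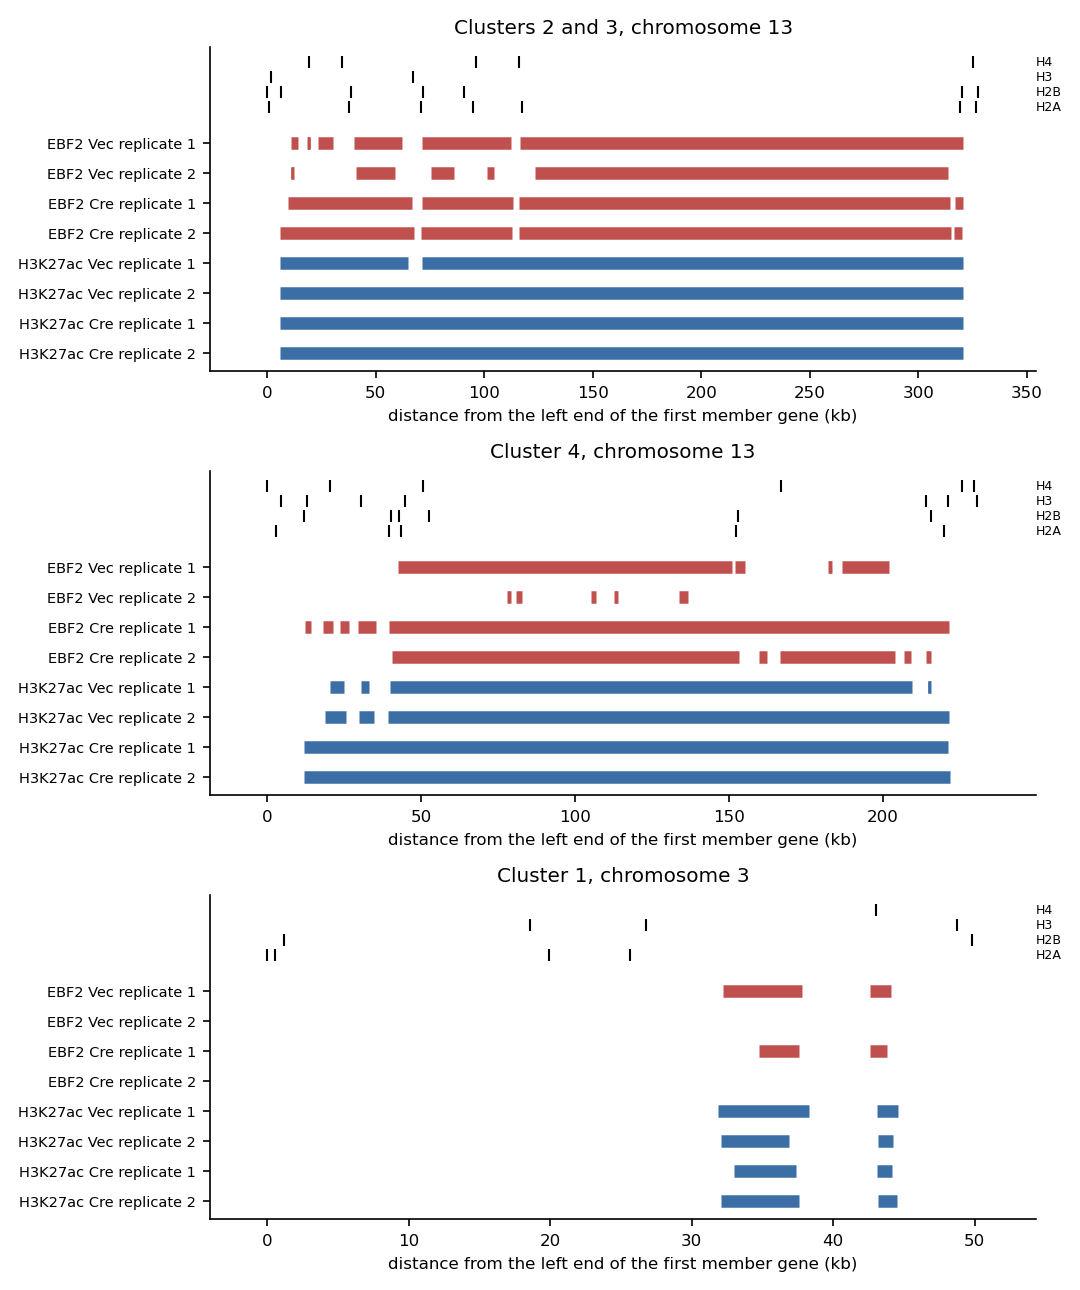
Peaks of each list (bars; red EBF2, blue H3K27ac) along clusters 2 and 3, cluster 4 and cluster 1, against the distance in kb from the left end of the first member gene; ticks above mark the left ends of the H2A, H2B, H3 and H4 members. H3K27ac forms a single bar over clusters 2 and 3 in 3 of 4 lists, EBF2 is in pieces, and cluster 1 shows 2 small peaks in 6 lists and none in the EBF2 replicates 2.

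The first 25 members in the order all lay on chromosome 13, and their windows are given one by one. Values are percent of the window inside EBF2 peaks in Vec replicates 1 and 2 and Cre replicates 1 and 2, in that order, and then inside H3K27ac peaks in the same order. H2ac24 headed the order with 81.5%, 22.6%, 85.8% and 84.8% for EBF2 and 100% in each H3K27ac list. Its neighbour H4c18 had 81.4%, 16.4%, 85.8% and 84.8% for EBF2 and 100% for H3K27ac in all 4. H3c11 had 55.6%, 20.4%, 78.6% and 85.5% for EBF2, and 69.6%, 100%, 100% and 100% for H3K27ac. At all 3 genes EBF2 Vec replicate 2 was the lowest of the 8 libraries, and the EBF2 Cre libraries lay above both EBF2 Vec libraries.

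At the right end of cluster 2, H2ac23 had 100%, 21.4%, 100% and 100% for EBF2, and 100% in every H3K27ac list. H2bc23, its head-to-head partner, had 100%, 35.1%, 100% and 100% for EBF2 and 100% for H3K27ac. H4c17 beside them had 100%, 15.4%, 100% and 100% for EBF2 and 100% for H3K27ac. These 3 genes encode an H2A, an H2B and an H4, and only EBF2 Vec replicate 2 did not cover them whole. H2ac22 had 55.5%, 30.3%, 78.6% and 85.5% for EBF2, and 69.6%, 100%, 100% and 100% for H3K27ac. Its partner H2bc22 had 73.3%, 31.1%, 87.2% and 91.3% for EBF2, and 81.7%, 100%, 100% and 100% for H3K27ac. This pair stands at the break between the pieces, which lowers both values in H3K27ac Vec replicate 1 as well.

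In the middle of cluster 2, H2ac15 had 51.6%, 36%, 100% and 100% for EBF2 and 100% in each H3K27ac list. H2bc15 had 51.5%, 39.3%, 100% and 100% for EBF2 and 100% for H3K27ac. H4c12 had 51.3%, 19.8%, 100% and 100% for EBF2 and 100% for H3K27ac. The EBF2 Vec libraries covered these windows in part and the EBF2 Cre libraries whole. H4c11 went the same way, with 52.8%, 8.02%, 99.6% and 100% for EBF2 and 100% for H3K27ac.

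At the left end of cluster 2 the cover thinned out for both antibodies. H2bc14 had 14.8%, 7.99%, 36.2% and 53.7% for EBF2, and 53.9%, 53.7%, 53.9% and 53.9% for H3K27ac. H3c10 had 7.1%, 7.99%, 14.6% and 32.2% for EBF2, and 32.4%, 32.2%, 32.4% and 32.4% for H3K27ac. H2ac13 had 0.968%, 1.86%, 8.52% and 26.1% for EBF2, and 26.3%, 26.1%, 26.3% and 26.3% for H3K27ac. Among the EBF2 libraries Cre replicate 2 was the highest at H2bc14, H3c10 and H2ac13 and close to the H3K27ac libraries. In cluster 3, H2ac12 had 53.9%, 21.3%, 44.2% and 45.9% for EBF2, and 53.7%, 53.9%, 53.9% and 54% for H3K27ac. Its partner H2bc12 had 50.5%, 17.9%, 40.8% and 42.5% for EBF2, and 50.3%, 50.6%, 50.6% and 50.6% for H3K27ac. Here EBF2 Vec replicate 1 was higher than both Cre libraries, unlike in cluster 2.

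In cluster 4, H2bc6 was the only member with a peak in every list, with 100%, 5.71%, 100% and 100% for EBF2 and 100% for H3K27ac. Its annotated span (chr13:23583670-23621124) is the longest of the members, and the EBF2 Vec replicate 2 peaks in it had summits 8788 and 10924 bp from its start. Both peaks were weak, at percentile 1.31 of their list by significance score. H2ac6 had 57.4%, 0%, 100% and 66.7% for EBF2 and 100% for H3K27ac. H2bc4 had 39%, 0%, 100% and 62.9% for EBF2 and 100% for H3K27ac. At both genes the order was Vec replicate 2, Vec replicate 1, Cre replicate 2 and Cre replicate 1 from low to high. H2ac8 had 37.7%, 0%, 78.7% and 47% for EBF2, and 61.3%, 77.3%, 100% and 100% for H3K27ac. H2bc8 had 41%, 0%, 78.6% and 50.4% for EBF2, and 64.7%, 77.9%, 100% and 100% for H3K27ac. H2bc7 had 52.5%, 0%, 78.6% and 61.9% for EBF2, and 66%, 77.9%, 100% and 100% for H3K27ac. At these genes the Vec and Cre libraries did not overlap with either antibody. H2ac7 had 55.7%, 0%, 78.7% and 65.1% for EBF2, and 67.5%, 78%, 100% and 100% for H3K27ac. H3c4 had 62.4%, 0%, 78.7% and 71.8% for EBF2, and 74.2%, 78%, 100% and 100% for H3K27ac. They followed the same order.

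The other 32 members comprised 24 with a peak in 3 to 7 lists and 8 with none. In cluster 1 only H4c14 was itself overlapped, by a peak of 1.07 to 1.47 kb in the 4 H3K27ac lists and in EBF2 Vec replicate 1 and EBF2 Cre replicate 1. Folds of that peak were 1.45 to 1.56 for H3K27ac, and 2.09 and 2.2 for EBF2. A second peak, of 2.8 to 6.44 kb, lay between H3c14 and H4c14 in the same 6 lists, and these peaks gave H2ac18, H3c14, H4c14, H3c13 and H2bc18 their counts. Neither peak was in EBF2 replicate 2 of Vec or of Cre, so at cluster 1 the EBF2 libraries differed by replicate number and not by genotype. In clusters 3 and 4 the members at the ends had low values: H4c9, H2ac11 and H2bc11 had 13.8% to 25.7% of their windows covered in 7 lists, and H4c2, H4c1 and H3c1 had 1.59% to 29.9% in the same 4 lists.

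The 8 members without a peak were H2ac21, H2ac20, H2bc21, H3c15 and H2ac19 in cluster 1, H4c8 at the left end of cluster 4, and H2bc1 and H2ac1, the pair of cluster 5 that encodes testis-enriched H2B and H2A. H2ac19 and H4c8 were just outside the limit, with the nearest peak of any list 11.4 kb away from each, and H3c15 was 12.6 kb away. H2ac10 and H3c1, at 8.54 and 8.84 kb, were just inside. For H2bc1 and H2ac1 the nearest peak of any list was 181 kb away.

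By histone class, in H3K27ac Cre replicate 1, 13 of 17 H2A, 14 of 16 H2B, 11 of 12 H3 and 11 of 12 H4 genes had a peak, and the same numbers had a peak in EBF2 Cre replicate 1 and H3K27ac Cre replicate 2. In EBF2 Vec replicate 2, 6 H2A, 6 H2B, 2 H3 and 4 H4 genes had a peak. Fewer members had a peak over their start than near the gene. Of 52 members with a promoter entry, the stretch from 250 bases before to 50 bases after the start met a peak for 16, 0, 29 and 24 members in EBF2 Vec replicates 1 and 2 and Cre replicates 1 and 2, and for 27, 30, 31 and 31 members with H3K27ac, beside 2.6% to 4.9% of all genes with an entry.

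H3K27ac and EBF2 were compared gene by gene on the share of the window inside peaks. All 49 members with any peak had a higher mean with H3K27ac than with EBF2, beside 68.4% of the 1596 genes tested. The median difference was 25.6 percentage points over members and 0.584 over all genes tested. Without EBF2 Vec replicate 2, 45 members were higher with H3K27ac and 4 were equal, beside 62.2% of genes, and the medians were 15.9 points over members and 0.381 over all genes tested. By gene, no difference passed an exact permutation test of 4 against 4 libraries, two-sided, with Benjamini-Hochberg adjustment (0 of 1596 genes, smallest adjusted p = 0.362). A gene could pass only if most of the 1596 genes reached the smallest p, so this does not show that cover was equal. Unadjusted, 126 genes (7.89%) reached the smallest p this design allows, 0.0286, and 2 of them were members. These were H2ac24, at 68.7% ± 30.8 (SD, n = 4) for EBF2 and 100% ± 0 (SD, n = 4) for H3K27ac, and H4c18, at 67.1% ± 33.9 and 100% ± 0, with an adjusted p of 0.362 each in that exact permutation test.

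The number of members with a peak was also higher with H3K27ac, at 47.2 ± 2.36 (SD, n = 4) against 34.2 ± 12.7 for EBF2, a difference of 13. The difference was 7.58 without EBF2 Vec replicate 2, and 17.9 without EBF2 Cre replicate 1. EBF2 Cre replicate 1, with 49 members, lay within the H3K27ac range of 44 to 49, so the antibodies overlapped. Over all genes, H3K27ac lists held 320 more genes than EBF2 lists (exact permutation test over 4 against 4 libraries, two-sided, p = 0.0286, the smallest possible). When any EBF2 library was left out the difference was 273 to 340 genes and the exact permutation p was 0.0571. When any H3K27ac library was left out instead, the difference was 260 to 375 genes and the exact permutation p stayed at 0.0286. With the replicate number as a block the exact permutation p was 0.0556, the smallest that blocked design allows, so it could not pass the threshold and says nothing on stability. No member had a peak in all 4 H3K27ac lists and in no EBF2 list, beside 0.135% of genes, and none in all 4 EBF2 lists and no H3K27ac list, beside 0.00968%. Among peaks of 10 kb or less the difference turned, to 4 fewer members with H3K27ac than with EBF2. EBF2 peaks were called as narrow and H3K27ac peaks as broad, so that antibody and calling cannot be told apart.

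Cre and Vec were compared within each antibody, the question being what loss of Cars2 does to EBF2 and H3K27ac on chromatin. With EBF2, the mean number of members with a peak was 26 ± 11.3 for Vec and 42.5 ± 9.19 for Cre (SD, n = 2 each), and the groups did not overlap. The mean difference was 16.5 members with all libraries and 8.5 members without Vec replicate 2, or 10 without Cre replicate 1. It was 5.5 with peaks of 10 kb or less, 6.5 within 50 kb and 0.5 when a peak counted for the nearest gene only. Over all genes with an EBF2 peak, Vec had 736 ± 139 and Cre 824 ± 23.3 (exact permutation test over 2 against 2 libraries, two-sided, p = 0.667, where the smallest possible is 0.333), and without Vec replicate 2 Cre had 10.5 fewer genes than Vec.

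The members in both EBF2 Cre lists and in neither EBF2 Vec list were H2bc13, H3c6, H4c3, H3c3, H2bc3, H2ac4 and H3c2. They were 7 of the 20 genes of the whole table with that pattern, 0.0968% of all genes, and 6 of them lay in cluster 4, where they share peaks. With EBF2, H4c3 had 0% of its window covered in both Vec lists and 100% and 66.2% in Cre. H3c3 had 0% in both Vec lists and 85.8% and 19.5% in Cre. H3c6 had 0% in both Vec lists and 54.1% and 4% in Cre. At each of these 3 genes the Cre replicates differed widely from each other, and all 4 H3K27ac lists had a peak. The reverse pattern, both Vec lists and no Cre list, had 0 members, beside 0.0484% of genes. Without Vec replicate 1 or Cre replicate 2 the count was 18 or 15 members, beside 0.731% or 0.324% of all genes. Without Vec replicate 2 or Cre replicate 1 it was 7, beside 0.116% or 0.208%.

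By cover of the window, both EBF2 Cre libraries exceeded both EBF2 Vec libraries at 27 members, 13 in cluster 2 and 14 in cluster 4, and both were lower at 0, beside 6.83% and 1.38% of the 1596 genes tested. The count was 27 without Vec replicate 2, beside 7.52% of genes, and 27 without Cre replicate 1, beside 11%. It was 36 without Vec replicate 1, beside 19.4% of genes, and 35 without Cre replicate 2, beside 12.3%. The mean cover of all members was 29.2% and 6.29% in EBF2 Vec and 48.1% and 37.8% in EBF2 Cre. In cluster 4 it was 22.4% and 0.238% in Vec and 57.4% and 31.3% in Cre, whereas in cluster 3 it was 32.5% and 7.84% in Vec and 27% and 27.8% in Cre. Only for clusters 2 and 4 were the 2 groups of libraries apart. Among peaks of 10 kb or less, 5 members were higher in both Cre libraries, beside 0.877% of genes.

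With H3K27ac, the wide peak of cluster 4 was longer in both Cre libraries. In cluster 2 the mean cover was 78.5% and 83.4% in Vec and 83.5% in both Cre libraries. The mean number of members with a peak was 45.5 ± 2.12 for Vec and 49 ± 0 for Cre (SD, n = 2 each), a difference of 3.5 that was 2 without Vec replicate 1. The direction turned with the way peaks were counted, to -9.5 with peaks of 10 kb or less, -9 by the peak's midpoint and -3.5 when a peak counted for the nearest gene only. H2ac10 and H3c8 had a peak in both Cre lists and in no Vec list, beside 0.106% of genes, at 7.11% and 7.12% of the window for H2ac10 and 14.6% in both Cre lists for H3c8. The reverse held for 0 members, beside 0.165% of genes. Both Cre libraries exceeded both Vec libraries in cover at 11 members, all in cluster 4, and both were lower at 1, H2ac18 in cluster 1, beside 5.2% and 5.89% of genes tested. H2ac18 had 21.1% and 19.8% in Vec and 15.4% and 19.8% in Cre, so replicate 2 of each differed only beyond the digits shown. Without H3K27ac Vec replicate 2 or Cre replicate 1 that 11 rose to 26 or 23 members, beside 8.15% or 29.3% of genes. The wide peak of cluster 4 measured 170 and 182 kb in Vec and 209 and 210 kb in Cre, where it started at H2bc9 and took in H3c7, H4c6 and H3c6, of which H4c6 and H3c6 had small peaks of their own in Vec. There were 8 and 6 peaks at members in Vec and 4 and 4 in Cre. Over all genes with an H3K27ac peak, Vec had 1066 ± 183 and Cre 1134 ± 210 (exact permutation test over 2 against 2 libraries, two-sided, p = 0.667). That direction turned when 1 library was left out: Cre minus Vec was -62.5 genes without Vec replicate 2 and -81.5 without Cre replicate 2.

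**Figure D4:**
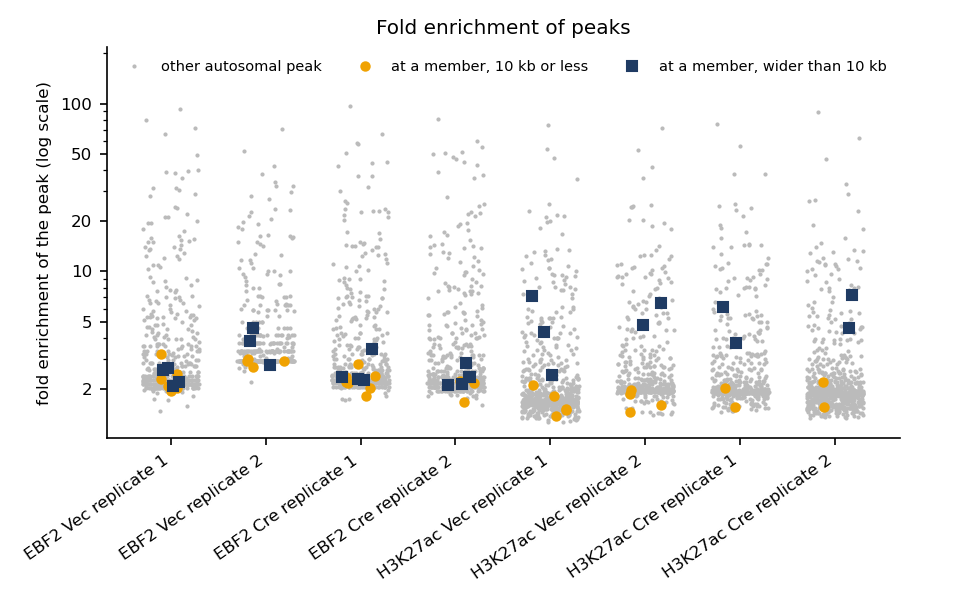
Fold of each autosomal peak over the caller's background (log axis) in the 8 lists: grey, peaks away from members; orange, peaks at members of 10 kb or less; dark blue, peaks at members wider than 10 kb. EBF2 peaks at members sit at 1.68 to 4.6, near the median of their lists, while the widest H3K27ac peak at members in each list is at 6.13 to 7.25; folds are comparable only within a list.

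By fold, the peaks at members were not the highest of any list. The median fold at members was 2.25, 2.93, 2.28 and 2.24 in the EBF2 lists, in the order above, beside 2.39, 3.35, 2.43 and 2.32 for all autosomal peaks of those lists. In the H3K27ac lists the medians were 1.96, 1.92, 2.9 and 3.4, beside 1.71, 2.02, 1.95 and 1.88. The highest score percentile of a peak at members was 71.2 to 82.7 for EBF2 and 89.3 to 93.7 for H3K27ac.

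Many wide peaks began or ended at histone genes. Of the 50 edges of the 25 peaks over 10 kb at members, 18 lay inside a member and 34 (68%) within 1 kb of a member, at a median distance of 340 bp. The share was 100% in 3 H3K27ac lists and 66.7% in H3K27ac Vec replicate 1, and 50%, 33.3%, 62.5% and 70% in the EBF2 lists. Other wide autosomal peaks had 31.5% to 40.4% of their edges within 1 kb of a protein-coding gene. Members are dense, since 34.8% to 69.1% of the span of clusters 1 to 4 lies within 1 kb of a member, so that the 2 shares are given side by side without a test. Some edges recurred between libraries, and these were chosen after their values were seen. A right edge in H2bc12 was shared by 7 lists within 177 bp (chr13:22036019-22036196), in all but EBF2 Vec replicate 2. A left edge before H2bc14 was shared by the 4 H3K27ac lists and EBF2 Cre replicate 2 within 44 bp (chr13:21721479-21721523). A right edge at H3c2 was shared by 4 lists within 839 bp, and a left edge at H2ac22 by 4 lists within 562 bp.

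EBF2 summits, the points of highest signal that the narrow lists give, lay near starts of members for part of the peaks. Over 37 EBF2 peaks at members the summit was at a median of 3574 bp from the nearest annotated member start, and within 1 kb for 17 (45.9%). For 914 EBF2 peaks within 10 kb of other protein-coding genes, 9.63% of summits were within 1 kb of the nearest start. Members lie densely, as the shares of the cluster spans above show, so the 2 shares are not like for like, and no test was made. Of the 16 wide peaks, 9 had the summit within 1 kb, among them the 182 kb peak of EBF2 Cre replicate 1, whose summit was 243 bp from the start of H2ac6. The 191 kb peak of EBF2 Vec replicate 2 had its summit 96364 bp from H2ac12, far from every member.

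At the chromosome 13 histone clusters, the longest stretch inside peaks of all 8 lists held no member. It ran for 191 kb between clusters 2 and 3 (chr13:21838857-22029490) and overlapped Zfp184, Pom121l2 and Prss16, a zinc finger gene, a nucleoporin-like gene and a serine protease gene. Only 3 of the 7 stretches shared by all lists on this part of chromosome 13 overlapped a member, H2bc22 or H2bc6. Of the other protein-coding genes, 4 of 4 between clusters 2 and 3 had a peak in all 8 lists, namely Zfp184, Pom121l2, Prss16 and H4bc24, a histone gene beside H2ac24 (formerly Hist1h2br) that the symbol rule did not take, against 0 of 41 between clusters 3 and 4, most of them vomeronasal receptor genes, and 0 of 6 between clusters 4 and 5. Among those 41, Vmn1r207 and Vmn1r208 had a peak in 5 and 6 lists and the others in none. Hfe, the haemochromatosis gene inside cluster 4, had a peak in 7 lists. Since wide peaks cover whatever lies in them, a peak near a member cannot be ascribed to that gene.

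Other genes of the histone pathway are given beside the 7.72% of all genes with a peak in any list. Linker histone H1 genes, which bind DNA between nucleosomes, had a peak at 4, 2, 5 and 4 of 6 genes with EBF2 and at 5 of 6 in each H3K27ac list. H1f5 in cluster 2 had 56.2%, 23.6%, 79% and 85.8% of its window in EBF2 peaks, and 70.1%, 100%, 100% and 100% in H3K27ac peaks. H1f4 in cluster 4 had 100%, 8.91%, 100% and 100% for EBF2 and 100% for H3K27ac. H1f3, H1f6 and H1f2 had peaks in 5 to 7 lists, and H1f1 was the only linker gene without. Outside the clusters, 0 of 16 replication-independent histone genes had a peak in any list. Of 27 genes for transcription and 3′ end processing of histone mRNA, Nfya, a subunit of the factor that binds CCAAT, and Cpsf2, a cleavage factor, had a peak in 1 H3K27ac list each and none with EBF2. Of 24 histone chaperone genes, Ubn1, part of the H3.3 chaperone HIRA, had a peak in 2 H3K27ac lists. None of 47 other S phase genes had a peak in any list. These lists are short, and no contrast of them with the members or with all genes was tested.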

How the data were processed

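One peak list was deposited per library, so peaks had been called library by library. The submitters' processing notes name bcl2fastq 2.17, Trimmomatic 0.33, HISAT2 2.2.1, MACS2 2.2.7 and the mm10 genome. Filters, duplicates, control library and caller settings are not given in the sources used here. Per the file headers' layout, the authors gave each peak a score (10 times the −log10 q-value, as a whole number), a fold, which is a ratio to the caller's background, and its −log10 p-value and −log10 q-value. In the H3K27ac lists these deposited values are means over a broad region. Scores and folds were compared within a list only.

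Genes, symbols and promoters came from RefSeq tables of GRCm38.p6, the assembly of mm10. An overlap of 1 bp counted. The share of each gene window inside merged peaks was computed, and libraries were compared by exact permutation tests, two-sided, with Benjamini-Hochberg adjustment over the 1596 genes with cover in any list and a threshold of 0.05. Counts over members have no test. Depth is unknown, since the lists hold no read counts. The members and gene lists were chosen with earlier results of these data known. The 25 members named with values were the first by number of lists, then mean score percentile of the best peak, then symbol. Other members were named where a count held 8 or fewer, or after their values were seen. On simulated peaks, 200 of 200 planted genes were found among 20665, with 0 found wrongly. The alternatives were other windows, peak widths, score limits and assignments, and leaving out each library. Tables were handled with pandas 2.3.3 and numpy 2.4.6 under Python 3.11.15, and figures were drawn with matplotlib 3.10.9.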

Additional observations from a re-analysis of the deposited data

How the results depend on the processing

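Depth is unknown, and the exact permutation test of 2 Vec against 2 Cre libraries cannot give a p below 0.333. Of 205 results recomputed under an alternative, 144 were counted as the same, 46 as moved, 10 as reversed in sign and 5 as no longer passing the threshold. For mean members and their differences, same meant a change no larger than the SD between libraries. For other counts it meant a change within a fixed ratio, and for tested differences the same side of the threshold. A difference counted as the same can still have shrunk, as EBF2 Cre minus Vec did from 16.5 to 5.5 members with peaks of 10 kb or less. The 5 that no longer passed were the antibody difference in genes with a peak under the replicate block and without each EBF2 library. The difference stayed at 273 to 340 genes. The block could not pass at any difference, whereas leaving out an H3K27ac library instead kept the exact permutation p at 0.0286. The counts of members in all 8 lists, in both EBF2 Cre lists only, higher with H3K27ac, and higher in both Cre lists, with their alternatives, were chosen after seeing the data; the cause of the changes was not tested, apart from fewer peaks or a narrower window counting fewer genes.

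Mean members with a peak are given for EBF2 Vec, EBF2 Cre, H3K27ac Vec and H3K27ac Cre, reported as 26, 42.5, 45.5 and 49. They were 10, 29, 29.5 and 33.5 for a peak in the gene itself, 13, 30.5, 31 and 34 within 3 kb, 43.5, 50, 55 and 55 within 50 kb, 11, 16.5, 14.5 and 5 with peaks of 10 kb or less, 12, 22.5, 14 and 5 by the peak's midpoint, and 6, 6.5, 5.5 and 2 when a peak counted for the nearest gene only. H3K27ac Vec and Cre were 41 and 46.5 with peaks of at least the median score, and 50.5 and 54 with linker histone genes added. H3K27ac minus EBF2 turned from 13 to -4 with peaks of 10 kb or less, -7.75 by midpoint and -2.5 by nearest gene. For H3K27ac, Cre minus Vec turned from 3.5 to -9.5, -9 and -3.5 in the same order and was 0 within 50 kb. For EBF2, Cre minus Vec was 0.5 by nearest gene. Members in all 8 lists, 18 as reported, were 2 in the gene itself, 4 within 3 kb, 32 within 50 kb, 8 above the median score, and 0 with peaks of 10 kb or less, by midpoint and by nearest gene. Members in both EBF2 Cre lists and no Vec list, 7 as reported, were 0 within 50 kb and 2 by nearest gene. With peaks of 10 kb or less, members higher in both Cre lists were 5 for EBF2 and 0 for H3K27ac, and all genes with an EBF2 peak, Cre minus Vec, were -8.

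Leaving out each library in turn, genes with a peak, H3K27ac minus EBF2, ranged from 260 to 375, and the exact permutation p rose to 0.0571 when any EBF2 library was left out. Genes with a peak, Cre minus Vec, ranged from -10.5 to 186 for EBF2 and from -81.5 to 216 for H3K27ac. Members in all H3K27ac and no EBF2 list ranged from 0 to 3, in both EBF2 Cre lists only from 7 to 18, in all lists left from 18 to 29 and, for H3K27ac higher in both Cre lists, from 11 to 26. The gene-wise test of cover had 0 genes at adjusted p under 0.05 in every alternative run, with 0 to 259 genes at unadjusted p under 0.05. A gene could pass only if most genes in the adjustment reached the smallest p, so these counts of 0 do not show a stable negative result. With all 20665 genes in the adjustment none could pass, since only 1596 had any cover. Under the replicate block no gene could pass, since the smallest exact permutation p there is 0.0556.

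No label says that a replicate number marks a shared culture or day, and 2 pairs per antibody cannot settle it: the correlation of same-numbered deviations was 0.163 for EBF2 and -0.0862 for H3K27ac. With the replicate block, H3K27ac minus EBF2 was 320 genes with an exact permutation p of 0.0556, the smallest this blocked design allows, so that it could not pass. The differences in members, 16.5, 3.5 and 13, cannot change under the block, since each group holds both numbers.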

Other observations

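The stretch between and beside the chromosome 13 clusters is also dense in tRNA genes, which carry amino acids to the ribosome. Of 391 autosomal tRNA genes, 77 lay in the span of the chromosome 13 histone clusters. In each of the 8 lists 31 of these 77 (40.3%) had a peak within 10 kb, also in EBF2 Vec replicate 2, where fewer histone genes had a peak than in any other list. Elsewhere, 4.78% to 6.69% of 314 tRNA genes had a peak. The 191 kb stretch inside peaks of all 8 lists, which overlapped no histone member, held 30 tRNA genes. These tRNA genes share a few wide peaks with each other, and the pattern was noticed in the data, so the counts are a description.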
